A study of Mus musculus with 12 samples.

Results

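The receptor genes described here are Cxcr3, Cxcr4, Cxcr5, Cxcr6, Cx3cr1, Ccr2, Ccr4 and Ccr8, a set of chemokine receptors tied to T cell entry into tumours and positioning inside them. They were taken as the rows of the gene count table whose symbol is one of these names, 8 of 56980 genes, and all 8 passed the filter on low counts that 20411 genes passed. Bulk RNA-seq was made from CD8+ T cells sorted out of tumours of wild type C57BL/6J mice. Panc02 is a pancreatic tumour line of the mouse, and the Flt3L Panc02 line also expresses Flt3L, the ligand of the Flt3 receptor that expands dendritic cells. Live (DAPI-negative) CD45.2+ CD8+ cells were divided by surface asialo-GM1 (asGM1), a glycolipid carried by NK cells and some activated T cells. The 4 groups of 3 libraries were asGM1-positive and asGM1-negative cells from Flt3L Panc02 tumours, and asGM1-positive and asGM1-negative cells from Panc02 tumours. The labels give no age, time after implantation or Flt3L construct, do not state whether each replicate was its own mouse, and name no T cell receptor marker in the sort. The p-values therefore measure only the spread between these samples, which may be technical.

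Chemokine receptors are membrane proteins coupled to inhibitory G proteins, which turn a gradient of a small secreted ligand into directed movement and adhesion. CXCR3 answers the interferon-induced CXCL9 and CXCL10 and CXCR6 the membrane-bound CXCL16, both linked to effector and tissue-resident CD8+ T cells. CXCR4 answers CXCL12, CXCR5 the B cell follicle chemokine CXCL13, CX3CR1 fractalkine (CX3CL1), and CCR2 the monocyte attractants CCL2 and CCL7. CCR4 (for CCL17 and CCL22) and CCR8 (for CCL1 and, in mice, CCL8) are best known from type 2 helper and regulatory T cells.

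Library totals lay between 98663008 and 102896605 counts. In the count table, 1 sequenced fragment was worth about 2.68 counts, and the floor of 3 fragments stood at 0.0787 CPM (counts scaled to 1000000 in each library) in the median library, which covers counting error only. Cd8a, a chain of the CD8 co-receptor, lay between 1569 and 2562 CPM over the 12 libraries, as the sort implies, while the B cell genes Ms4a1 and Pax5 stayed at or below 0.111 CPM. Markers of other lineages differed between the gates in both directions. The summed plasmacytoid dendritic cell markers (8 genes) were at 112 to 122 CPM in asGM1-positive against 829.7 to 940.5 CPM in asGM1-negative cells of Flt3L Panc02 tumours, and at 45.9 to 60.7 against 194.1 to 275.2 CPM in Panc02 tumours. The summed CD4 and regulatory T cell markers (5 genes) were at 56.3 to 63.8 against 134.6 to 162.6 CPM, and at 47.9 to 59.8 against 117.9 to 142.3 CPM, in the same order. Of the 11 macrophage and monocyte markers, Ly6c2, which memory CD8+ T cells also transcribe, made up most of the mean sum in every group but Panc02 asGM1-positive cells. The other 10, summed without it after that was seen, stood at 603 to 819 CPM in asGM1-positive cells and 268 to 498 CPM in asGM1-negative cells of Flt3L Panc02 tumours. In Panc02 tumours they stood at 799 to 3131 and 677 to 1187 CPM, with overlap and with the first asGM1-positive library highest. In bulk RNA, fewer cells of a type and less RNA per cell cannot be told apart.

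**Figure D1:**
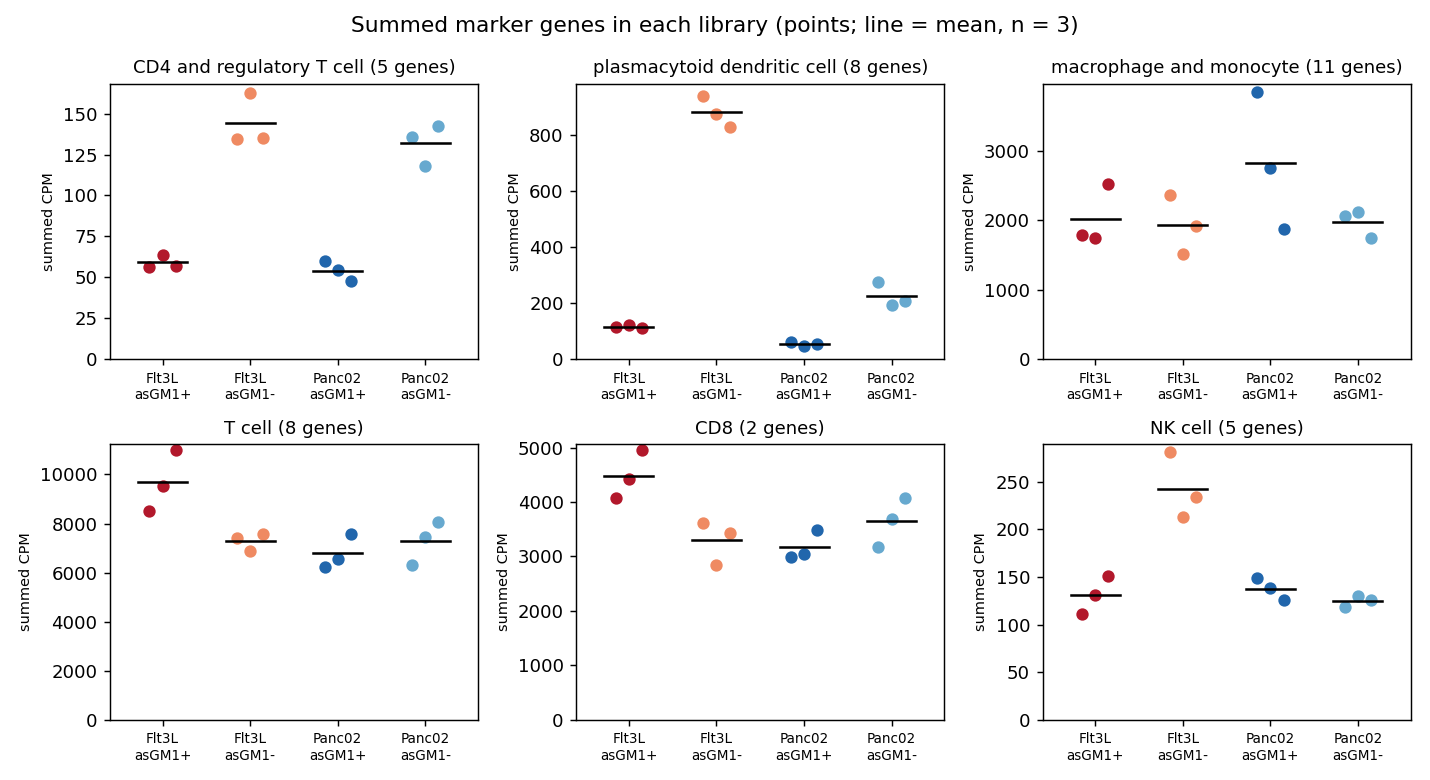
Summed CPM of 6 marker lists in each library (points, n = 3 per group; line, mean), with asGM1-positive left of asGM1-negative cells in each tumour type. The plasmacytoid dendritic cell and CD4 lists separate the gates in both tumour types, and the first Panc02 asGM1-positive library is the highest for macrophage and monocyte genes, a sum that includes Ly6c2.

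Cxcr6 was the most abundant of the 8 transcripts in every library. Corrected for exon length, it averaged 1220 CPM per kb (CPM divided by exon length in kilobases) in Flt3L Panc02 asGM1-positive, 710 in Flt3L Panc02 asGM1-negative, 1017 in Panc02 asGM1-positive and 1039 in Panc02 asGM1-negative cells. It made up between 53.5% and 78.9% of the length-corrected sum of the 8 genes in the 12 libraries. Cxcr3 and Ccr8 came next, and their order differed between tumour types. In Panc02 tumours Ccr8 stood at 169 ± 25.2 CPM per kb in asGM1-positive and 254 ± 21.2 in asGM1-negative cells (SD, n = 3), above Cxcr3 at 108 ± 21 and 156 ± 16.6 without overlap. In Flt3L Panc02 asGM1-negative cells Cxcr3, at 273 ± 9.57 CPM per kb, was above Ccr8, at 217 ± 17.6, while in asGM1-positive cells the ranges of the 2 genes overlapped. Cx3cr1 followed with group means of 15.6 to 25.8 CPM per kb and Ccr2 with 6.88 to 9.72. Cxcr4 (1.22 to 10.99), Cxcr5 (0.221 to 1.83) and Ccr4 (0.0938 to 0.944) closed the order. In Flt3L Panc02 asGM1-negative cells the order of Cxcr4 and Ccr2 was the reverse, at 10.99 and 6.88 CPM per kb, with overlapping libraries. Cxcr5 overlapped Ccr4 in both Panc02 gates.

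**Figure D2:**
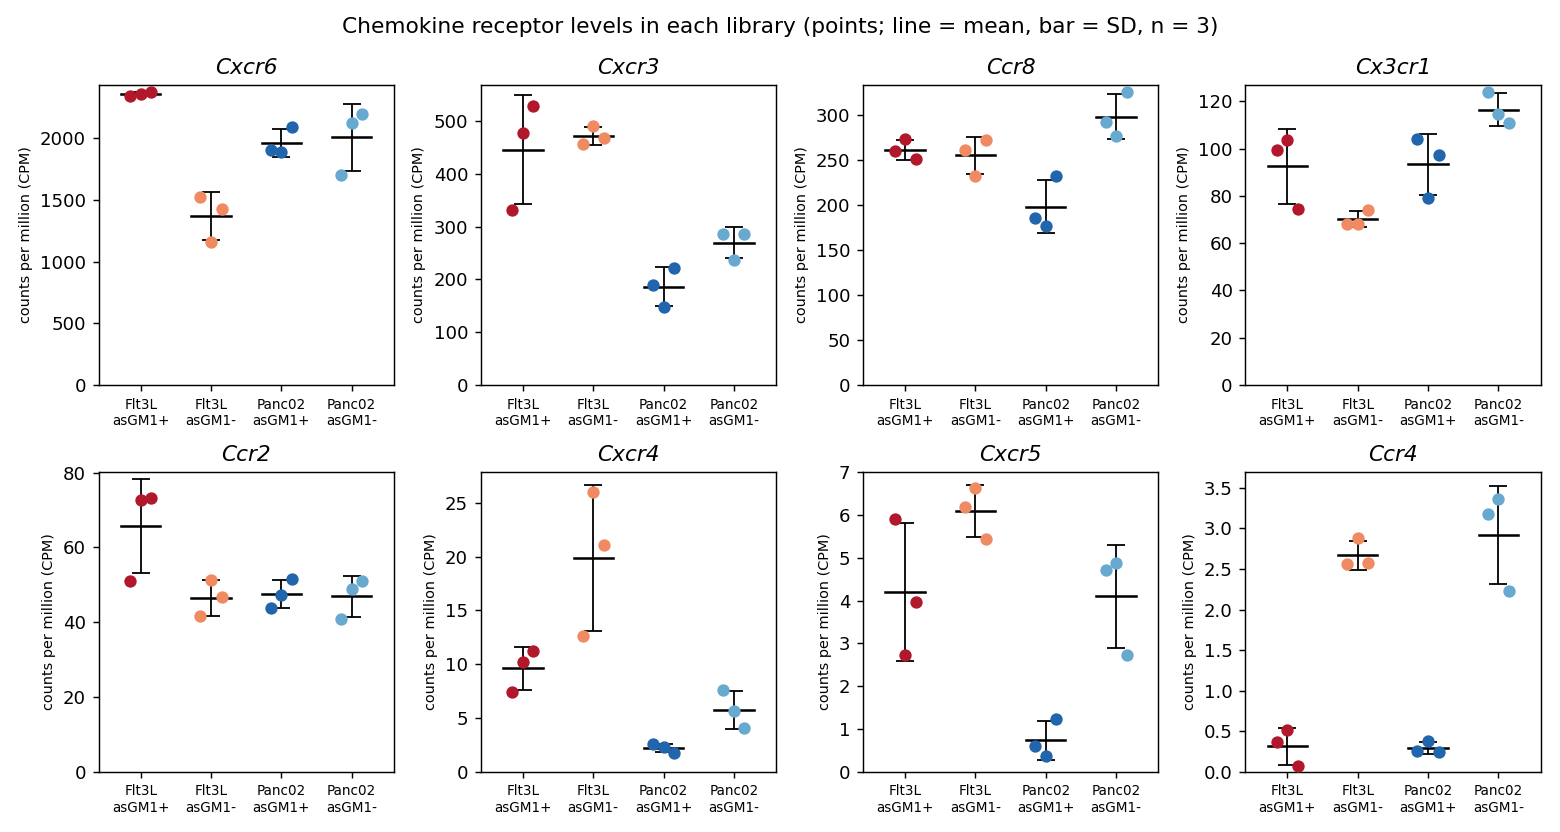
CPM of each receptor gene in each library (points), with the mean (line) and SD (bar, n = 3), on a linear axis from 0 for each gene. Ccr4 is low in both asGM1-positive groups, Cxcr3 and Cxcr4 are higher in Flt3L Panc02 than in Panc02 tumours in both gates, and Cxcr6 is lowest in Flt3L Panc02 asGM1-negative cells.

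Between the gates, asGM1-positive cells carried less Ccr4 in both tumour types, less Cxcr5 and Ccr8 in Panc02 tumours, and more Cxcr6 with less Cxcr4 in Flt3L Panc02 tumours. In Panc02 tumours 3 of the 8 genes fell and 0 rose at an adjusted p under 0.05 (edgeR quasi-likelihood test, Benjamini-Hochberg adjustment over 20411 genes), where 0.843% of all genes fell and 0.049% rose. At an unadjusted p under 0.05, 6 fell and 0 rose, where 2040 of the 20411 genes had such a p in either direction. DESeq2 called 4 lower and 0 higher, and its number over all genes is given in the closing section. In Flt3L Panc02 tumours 1 rose and 2 fell, against 2.77% and 5.83% of all genes. The median log2 fold change of the 8 genes was -0.56 in Panc02 tumours, where that of all genes tested was 0.02, and -0.02 in Flt3L Panc02 tumours, where that of all genes was -0.01. With libraries scaled to summed T cell and CD8 genes, a scaling chosen after seeing the data, the Flt3L Panc02 median became -0.45, where that of all genes was -0.42.

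Between the tumour types, libraries of Flt3L Panc02 tumours had more Cxcr3 and Cxcr4 in both gates, more Cxcr5 in asGM1-positive cells, and less Cxcr6 and Cx3cr1 in asGM1-negative cells. In asGM1-positive cells 3 of the 8 genes rose and 0 fell in edgeR, where 2.05% of all genes rose and 4.2% fell. At an unadjusted p under 0.05, 5 rose and 0 fell, where 4973 of the 20411 genes had such a p in either direction. DESeq2 called 5 higher and 0 lower, and its number over all genes is given in the closing section. In asGM1-negative cells 2 rose and 2 fell, against 1.86% and 1.84% of all genes. The median log2 fold change of the 8 genes was 0.43 in asGM1-positive cells, where that of all genes was -0.03, and -0.07 in asGM1-negative cells, where that of all genes was 0.00. T cell scaling turned the median in asGM1-positive cells to -0.07, where that of all genes was -0.53, and 4 of the 8 genes, none of them called, changed sign there. The comparisons share libraries in pairs, so their values for a gene are not independent.

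**Figure D3:**
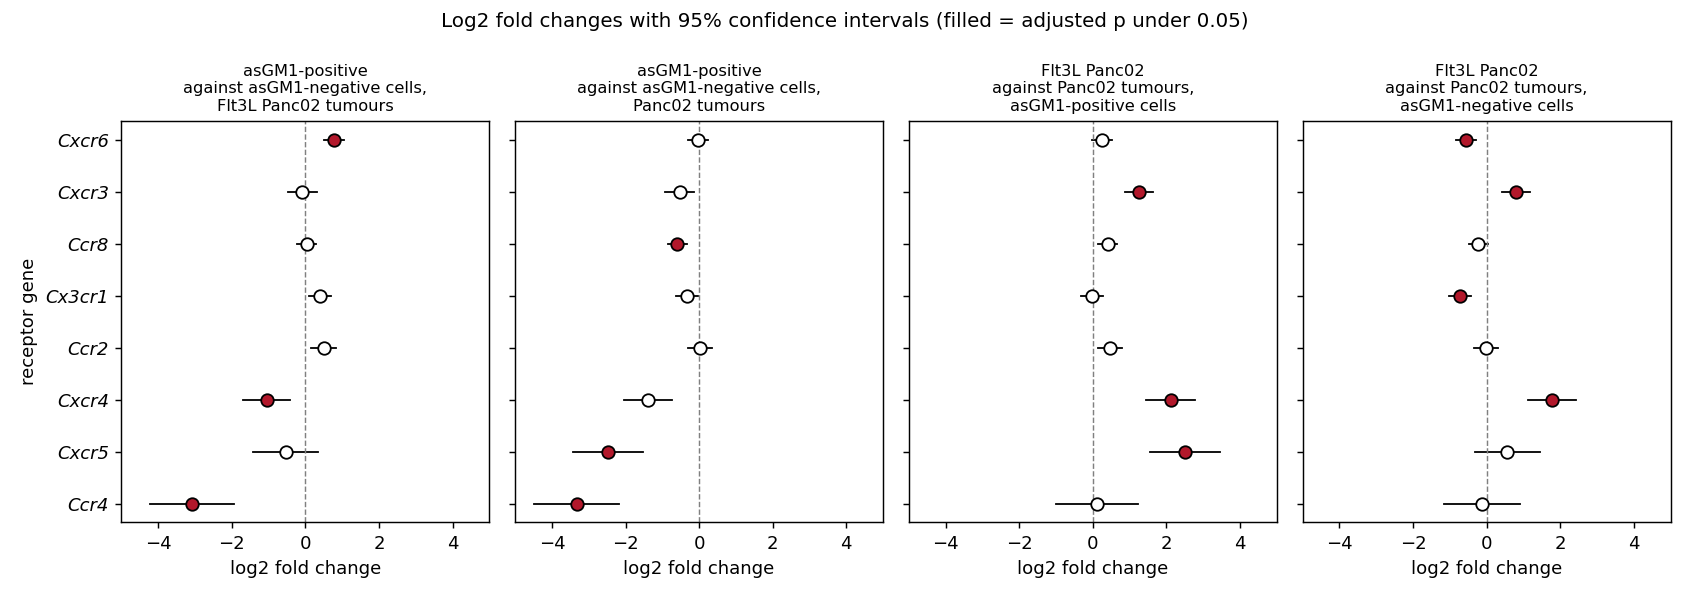
Log2 fold changes of the 8 receptor genes (rows) in the 4 comparisons (columns), with 95% confidence intervals as lines. Filled points passed an adjusted p under 0.05. Ccr4 lies near -3 in both gate comparisons and near 0 in both tumour comparisons, and Cxcr4 lies below 0 between gates and above 0 between tumour types.

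Cxcr6, the receptor for CXCL16, stood at 2340, 2357 and 2372 CPM in Flt3L Panc02 asGM1-positive cells, against 1525, 1157 and 1429 CPM in Flt3L Panc02 asGM1-negative cells. The asGM1-positive libraries differed by under 1% of their mean (coefficient of variation 0.674%) and all lay above the asGM1-negative ones. The log2 fold change was 0.78 ± 0.12 (SE; adjusted p = 0.00354). In Panc02 tumours the asGM1-positive libraries, at 1906, 1891 and 2096 CPM, overlapped the asGM1-negative ones, at 1700, 2126 and 2196 CPM (log2 fold change -0.03, 95% interval -0.30 to 0.24). The low group was therefore Flt3L Panc02 asGM1-negative cells, where Cxcr6 was also lower than in Panc02 asGM1-negative cells (log2 fold change -0.55 ± 0.12, adjusted p = 0.0374). That call was lost with no filter on low counts (adjusted p = 0.0693), when only the compared libraries were fitted (0.0761), and when Flt3L Panc02 replicate 2 or 3 (0.138 and 0.0863) or Panc02 replicate 2 or 3 (0.136 and 0.127) was left out. In asGM1-positive cells the log2 fold change between tumour types was 0.26 (adjusted p = 0.22), and -0.24 with T cell scaling (0.0737). With libraries scaled to summed T cell and CD8 genes, the Flt3L Panc02 gate difference was 0.38 and still called (adjusted p at most 0.0211 over the 15 alternatives). The plasmacytoid dendritic cell markers given above were highest in the same group, and their part in the Cxcr6 difference was not tested.

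The 250 bases before the annotated start of Cxcr6 are shown because it was the receptor that rose in asGM1-positive cells; here and below, capitals mark matches to any of 7 short motifs, on either strand.
Cxcr6: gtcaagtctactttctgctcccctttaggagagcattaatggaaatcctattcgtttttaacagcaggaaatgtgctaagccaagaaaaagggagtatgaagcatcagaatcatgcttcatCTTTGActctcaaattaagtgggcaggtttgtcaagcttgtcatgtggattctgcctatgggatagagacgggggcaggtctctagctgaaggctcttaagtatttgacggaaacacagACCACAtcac
This window is chr9:123806227-123806476 on the plus strand (RefSeq, build GRCm38.p6). The motifs searched, each on both strands, were GGTGTGA for T-box factors, CTTTGA for TCF and LEF, CACCC for KLF and Sp, AGATAA for GATA factors, TGANTCA for AP-1, TGTGGT for RUNX and TATAAA for the TATA box. The Cxcr6 window held 1 TCF and LEF match, which 13.8% of 32851 promoter windows hold, and 1 RUNX match, which 14% hold. A match describes letters and not binding.

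Cxcr3, the receptor for CXCL9 and CXCL10, stood at 331, 478 and 528 CPM in Flt3L Panc02 asGM1-positive cells, against 190, 149 and 221 CPM in Panc02 asGM1-positive cells. In asGM1-negative cells it stood at 457, 490 and 468 CPM in Flt3L Panc02 tumours, against 287, 237 and 286 CPM in Panc02 tumours. Every Flt3L Panc02 library was above every Panc02 library, in both gates. The log2 fold changes were 1.26 ± 0.18 in asGM1-positive cells (SE; adjusted p = 0.00579) and 0.81 ± 0.18 in asGM1-negative cells (adjusted p = 0.034). The asGM1-positive call was lost when only the compared libraries were fitted (adjusted p = 0.052), a fit in which 1 gene of the whole table was called. The asGM1-negative call was lost when Flt3L Panc02 replicate 2 or 3 (adjusted p = 0.124 and 0.0861) or Panc02 replicate 1, 2 or 3 (0.071, 0.136 and 0.0885) was left out, without both Panc02 libraries numbered 1 (0.0773) and with no filter on low counts (0.0601). The 8 summed T cell genes were themselves higher in asGM1-positive cells of Flt3L Panc02 tumours, at 8527 to 10990 CPM, against 6248 to 7561 CPM in Panc02 tumours. With libraries scaled to the T cell and CD8 genes, the Cxcr3 change in asGM1-positive cells was 0.74. The summed plasmacytoid dendritic cell markers were also higher in Flt3L Panc02 than in Panc02 tumours. They stood at 829.7 to 940.5 against 194.1 to 275.2 CPM in asGM1-negative cells, and 112 to 122 against 45.9 to 60.7 CPM in asGM1-positive cells. Their part in the Cxcr3 difference was not tested. Between the gates Cxcr3 did not pass the test. Its log2 fold change was -0.08 in Flt3L Panc02 tumours (adjusted p = 0.822), with overlapping libraries, and -0.53 in Panc02 tumours (adjusted p = 0.286), where the asGM1-positive libraries all lay below the asGM1-negative ones.

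Cxcr4, the receptor for CXCL12, had the steepest step between tumour types in asGM1-negative cells among the 8 genes. It stood at 12.6, 26.0 and 21.0 CPM in Flt3L Panc02 asGM1-negative cells, against 7.56, 5.61 and 4.08 CPM in Panc02 asGM1-negative cells. In asGM1-positive cells it stood at 7.38, 10.2 and 11.2 CPM in Flt3L Panc02 tumours, against 2.57, 2.27 and 1.78 CPM in Panc02 tumours. The tumour types did not overlap in either gate. The log2 fold changes were 1.79 ± 0.30 in asGM1-negative cells (SE; adjusted p = 0.0117) and 2.12 ± 0.31 in asGM1-positive cells (adjusted p = 0.00579, and 0.0507 when only the compared libraries were fitted). The asGM1-negative call was lost without Flt3L Panc02 replicate 2 (adjusted p = 0.057) and without Panc02 replicate 2 or 3 (0.0675 and 0.0542). The asGM1-positive libraries were also below the asGM1-negative ones within each tumour type. That gate difference was -1.05 ± 0.29 in Flt3L Panc02 tumours, with an adjusted p of 0.0481. It lost its call when asGM1-positive replicate 1, 2 or 3 (adjusted p = 0.143, 0.101 and 0.0848) or asGM1-negative replicate 2 or 3 (0.182 and 0.12) was left out. It was also lost with DESeq2 size factors (0.0516), with no filter on low counts (0.0795), when only the compared libraries were fitted (0.0704) and with a replicate block over all 12 libraries (0.0704). In Panc02 tumours it was -1.38 ± 0.30 with an adjusted p of 0.0626, and -1.35 with an adjusted p of 0.0114 when the replicate numbers, which pair the Panc02 libraries, were used as a block. Plasmacytoid dendritic cells, B cells and macrophages also transcribe Cxcr4. The plasmacytoid list moved with it between gates and, in asGM1-negative cells, between tumour types, and its part was not tested. Between tumour types in asGM1-positive cells that list stood at 112 to 122 CPM in Flt3L Panc02 tumours, against 45.9 to 60.7 CPM in Panc02 tumours. The gene Pacsin1 made up most of this sum, at means of 102 CPM in Flt3L Panc02 and 35.6 CPM in Panc02 tumours. Of the 8 markers, 1 was called higher in that comparison and 0 lower.

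The upstream windows of Cxcr3 and Cxcr4 are printed together because these genes moved in the same direction between tumour types in both gates.
Cxcr3: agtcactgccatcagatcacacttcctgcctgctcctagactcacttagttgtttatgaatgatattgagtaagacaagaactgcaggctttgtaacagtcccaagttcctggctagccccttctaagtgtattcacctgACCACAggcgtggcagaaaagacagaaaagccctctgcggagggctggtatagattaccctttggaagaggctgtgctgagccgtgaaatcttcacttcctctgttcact
Cxcr4: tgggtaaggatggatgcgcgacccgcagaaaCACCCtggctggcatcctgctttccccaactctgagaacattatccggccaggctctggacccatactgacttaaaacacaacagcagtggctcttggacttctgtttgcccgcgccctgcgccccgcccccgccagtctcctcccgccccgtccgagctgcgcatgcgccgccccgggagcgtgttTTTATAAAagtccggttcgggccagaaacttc
Cxcr3 is chrX:101734148-101734397 and Cxcr4 chr1:128592300-128592549, both on the minus strand (RefSeq, GRCm38.p6). The Cxcr3 window held a RUNX match as its only motif, and the Cxcr4 window held 1 KLF and Sp match, which 52% of promoter windows hold, and 2 overlapping TATA box matches on opposite strands, 32 and 30 bases before the start (12.4% of windows hold a TATA box match). The windows shared none of the 7 motifs and differed in G and C content, at 48% for Cxcr3 and 61.2% for Cxcr4. Across the 12 libraries their log2 CPM had a Pearson r of 0.894, the highest of the 28 pairs of the 8 genes, but only 0.245 once each group's mean was removed. The r thus describes the 4 group means more than libraries within a group.

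Cxcr5, the follicle-homing receptor also found on stem-like CD8+ T cells, was low in every library and lowest in Panc02 asGM1-positive cells. There it stood at 0.607, 0.365 and 1.24 CPM, against 4.71, 4.89 and 2.72 CPM in Panc02 asGM1-negative cells. Flt3L Panc02 asGM1-positive cells had 5.91, 2.73 and 3.97 CPM, against 6.196, 6.63 and 5.44 CPM in Flt3L Panc02 asGM1-negative cells. The Panc02 asGM1-positive libraries thus stood below all 9 others, and the Flt3L Panc02 gates overlapped. The gate difference in Panc02 tumours was -2.48 ± 0.43 (log2 fold change, SE; adjusted p = 0.019). It lost its call with the paired block (adjusted p = 0.06), when only the compared libraries were fitted (0.0994), without both Panc02 libraries numbered 1 (0.192), without asGM1-positive replicate 1 or 2 (0.0729 and 0.0688) and without asGM1-negative replicate 1 or 2 (0.0699 and 0.0739). In asGM1-positive cells the difference between tumour types was 2.51 ± 0.43 (adjusted p = 0.0103). It stayed called when any 1 library was left out, but not without both Panc02 libraries numbered 1 (0.052) or when only the compared libraries were fitted (0.0599). In asGM1-negative cells that difference was 0.57 (adjusted p = 0.487). B cells are the main lineage that carries this receptor, and their genes Ms4a1 and Pax5 were at or near 0 in these libraries. The 4 B cell markers summed to 5.07 to 6.11 CPM in asGM1-positive and 12.6 to 16.1 CPM in asGM1-negative libraries of Panc02 tumours, nearly all of it Cd79b, a chain of the B cell receptor complex. Cd79b was the 1 marker of the 4 that fell between those gates (log2 fold change -1.44, adjusted p = 0.00529), and its part in the Cxcr5 difference was not tested.

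Cx3cr1, the fractalkine receptor of cytotoxic effector T cells, monocytes and macrophages, stood at 68.2, 68.3 and 74.2 CPM in Flt3L Panc02 asGM1-negative cells, against 124, 115 and 111 CPM in Panc02 asGM1-negative cells. The tumour types did not overlap, with a log2 fold change of -0.73 ± 0.14 (SE; adjusted p = 0.0181). That call was lost without Flt3L Panc02 replicate 2 (adjusted p = 0.0852), without Panc02 replicate 1, 2 or 3 (0.0538, 0.0777 and 0.0554), without both Panc02 libraries numbered 1 (0.0513) and with T cell scaling (0.13), while the change itself stayed between -0.77 and -0.68. In asGM1-positive cells Cx3cr1 stood at 99.4, 104 and 74.4 CPM in Flt3L Panc02 tumours, against 104, 78.9 and 97.1 CPM in Panc02 tumours, with overlapping ranges and a log2 fold change of -0.01 (95% interval -0.31 to 0.28). Between gates its log2 fold change was 0.40 in Flt3L Panc02 tumours (adjusted p = 0.0974, and 0.0297 without asGM1-positive replicate 3; 0.0017 with T cell scaling, adjusted p = 0.998) and -0.32 in Panc02 tumours (adjusted p = 0.458). In DESeq2 the adjusted p between gates was 0.0386 in Flt3L Panc02 and 0.329 in Panc02 tumours. Macrophages transcribe Cx3cr1, and none of the 11 macrophage and monocyte markers was called in asGM1-negative cells between tumour types in edgeR. Without Ly6c2, the other 10 markers summed to 268 to 498 CPM in Flt3L Panc02 and 677 to 1187 CPM in Panc02 asGM1-negative libraries, without overlap. Lyz2, for example, averaged 92.2 against 218 CPM (log2 fold change -1.24, adjusted p = 0.182). These markers thus stood lower along with Cx3cr1, and their part in its difference was not tested.

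Ccr2, the receptor for CCL2 and CCL7, passed the test in none of the 5 comparisons in the main edgeR fit. Of 15 alternatives, 4 called it between the Flt3L Panc02 gates and 3 between tumour types in asGM1-positive cells. The DESeq2 test was among them for both comparisons (adjusted p = 0.0201 and 0.031). It stood at 51.1, 72.8 and 73.2 CPM in Flt3L Panc02 asGM1-positive cells, against 41.6, 51.2 and 46.8 CPM in Flt3L Panc02 asGM1-negative cells. In Panc02 tumours it stood at 43.9, 47.2 and 51.6 CPM in asGM1-positive, against 40.8, 48.9 and 51.1 CPM in asGM1-negative cells. Of the Flt3L Panc02 asGM1-positive libraries 2 were above all others and the first was among them. The log2 fold change between gates was 0.50 ± 0.15 in Flt3L Panc02 tumours (adjusted p = 0.0656, and 0.0218 without that first library; 0.06 with T cell scaling, adjusted p = 0.798) and 0.02 in Panc02 tumours (95% interval -0.31 to 0.35). Between tumour types it was 0.47 ± 0.15 in asGM1-positive cells (adjusted p = 0.0878, and 0.0289 without the same library). With T cell scaling that change was -0.05 (adjusted p = 0.815). In asGM1-negative cells it was -0.01 (95% interval -0.34 to 0.32). Without Ly6c2, the other 10 macrophage and monocyte markers were higher along with Ccr2 between the Flt3L Panc02 gates. They summed to 603 to 819 CPM in asGM1-positive and 268 to 498 CPM in asGM1-negative cells. In Panc02 asGM1-positive cells they summed to 799 to 3131 CPM, while Ccr2 averaged lower there than in Flt3L Panc02 tumours. Their part in the Ccr2 values was not tested.

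Ccr4, the receptor for CCL17 and CCL22, had the strongest gate difference of the 8 genes. In Flt3L Panc02 tumours it stood at 0.363, 0.512 and 0.0665 CPM in asGM1-positive cells, against 2.56, 2.88 and 2.58 CPM in asGM1-negative cells. In Panc02 tumours it stood at 0.256, 0.374 and 0.240 CPM in asGM1-positive cells, against 3.17, 3.36 and 2.23 CPM in asGM1-negative cells. The asGM1-positive values rested on 6 to 49 counts per library, the lowest of them under the floor of 3 fragments, and none reached any asGM1-negative value. The log2 fold changes were -3.08 ± 0.52 in Flt3L Panc02 tumours (SE; adjusted p = 0.00499) and -3.33 ± 0.53 in Panc02 tumours (adjusted p = 0.0102). The first held in all 14 alternatives that could test it, and the second in 14 of 15, failing without both Panc02 libraries numbered 1 (adjusted p = 0.104). Between tumour types the log2 fold change was 0.12 in asGM1-positive cells (95% interval -1.0 to 1.24) and -0.13 in asGM1-negative cells (-1.16 to 0.90).

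Foxp3 and Cd4, which define regulatory and helper T cells, were lower along with Ccr4 in asGM1-positive cells of both tumour types. Cd4 averaged 4.77 against 28.1 CPM in asGM1-negative cells of Flt3L Panc02 tumours, and 3.05 against 7.59 CPM in Panc02 tumours. Of the same marker list, Ikzf2 and Cd40lg also averaged lower. Zbtb7b averaged higher, at 12.03 against 8.45 and 9.39 against 9.08 CPM, with overlap. Between tumour types in asGM1-negative cells, Foxp3 was lower and Cd4 higher in Flt3L Panc02 tumours, while Ccr4 overlapped. Foxp3 stood at 9.28 to 11.1 CPM in asGM1-positive cells and 18.2 to 35.04 CPM in asGM1-negative cells of Flt3L Panc02 tumours, and at 5.29 to 11.6 and 48.5 to 72.7 CPM in Panc02 tumours. The ratio of Ccr4 to Foxp3 CPM, without length correction, was 0.0308 ± 0.021 in asGM1-positive cells and 0.107 ± 0.0301 in asGM1-negative cells of Flt3L Panc02 tumours (SD, n = 3), without overlap. In Panc02 tumours it was 0.0405 ± 0.0166 and 0.0498 ± 0.0194, with overlap. The part of other T cells in the Ccr4 difference was not tested. The upstream window of Ccr4 is printed because this gene separated the gates in both tumour types.
Ccr4: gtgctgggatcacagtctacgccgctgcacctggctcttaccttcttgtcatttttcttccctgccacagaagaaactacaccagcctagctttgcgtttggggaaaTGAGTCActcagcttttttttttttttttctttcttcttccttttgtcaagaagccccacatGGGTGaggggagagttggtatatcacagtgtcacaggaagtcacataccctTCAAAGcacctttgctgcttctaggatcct
It is chr9:114496545-114496794 on the minus strand (RefSeq, GRCm38.p6) and held 1 AP-1 match (6.75% of windows), 1 KLF and Sp match and 1 TCF and LEF match. Of the 8 genes, 7 had an entry in the promoter table, and Cxcr5 is named only. The 3 TCF, KLF and AP-1 matches of Ccr4 were the most motifs in any of the 7 windows, which held 1 to 3.

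Ccr8, the receptor for CCL1, stood at 185, 177 and 232 CPM in Panc02 asGM1-positive cells, against 293, 277 and 326 CPM in Panc02 asGM1-negative cells. The gates did not overlap, with a log2 fold change of -0.59 ± 0.12 (SE; adjusted p = 0.04). The call was lost without asGM1-positive replicate 1 or 2 (adjusted p = 0.142 and 0.201), without asGM1-negative replicate 1, 2 or 3 (0.112, 0.0795 and 0.159), without both Panc02 libraries numbered 1 (0.284), when only the compared libraries were fitted (0.105), with no filter on low counts (0.0724) and with T cell scaling (-0.47, 0.197). In Flt3L Panc02 tumours it stood at 260, 273 and 251 CPM in asGM1-positive cells, against 261, 232 and 273 CPM in asGM1-negative cells, with full overlap and a log2 fold change of 0.03 (95% interval -0.22 to 0.29). Between tumour types it was 0.40 in asGM1-positive cells (adjusted p = 0.0655, and 0.0161 without Panc02 replicate 3; -0.09 with T cell scaling, adjusted p = 0.589) and -0.22 in asGM1-negative cells (adjusted p = 0.312). In DESeq2 the adjusted p between tumour types was 0.0112 in asGM1-positive and 0.276 in asGM1-negative cells. Ccr8 is also a gene of regulatory T cells in tumours, and Foxp3 fell with it in Panc02 tumours. The ratio of Ccr8 to Foxp3 CPM was 28.5 ± 14.1 in asGM1-positive and 4.92 ± 0.689 in asGM1-negative cells of Panc02 tumours, and 26.2 ± 1.7 and 10.4 ± 3.84 in Flt3L Panc02 tumours. The ratio was thus higher in asGM1-positive cells in both tumour types, without overlap. In Flt3L Panc02 tumours it followed Foxp3, at means of 9.99 in asGM1-positive against 26.6 CPM in asGM1-negative cells, while Ccr8 overlapped. The part of regulatory T cells in the Ccr8 values was not tested.

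The test of the difference between gate effects in the 2 tumour types (the interaction) called 0 of the 8 genes in edgeR, where 0.0343% of all genes were called higher and 0.333% lower. At an unadjusted p under 0.05, 5 genes had a higher gate effect in Flt3L Panc02 tumours and 0 a lower one. Over all 20411 genes, 3030 had such a p in either direction. DESeq2 called 4 of the 8 higher and 0 lower, and its number over all genes is given in the closing section. The DESeq2 calls were Cxcr5 (adjusted p = 0.029), Cxcr6 (0.000904), Cx3cr1 (0.0178) and Ccr8 (0.0142). In edgeR the log2 differences were 1.94 for Cxcr5 (adjusted p = 0.172), 0.81 for Cxcr6 (0.0819), 0.72 for Cx3cr1 (0.136) and 0.62 for Ccr8 (0.131). Without Panc02 asGM1-positive replicate 3, edgeR called Cxcr5 (adjusted p = 0.0361) and Ccr8 (0.0391). All 8 estimates were positive in edgeR and their median was 0.55, where that of all genes was -0.02. With T cell scaling 4 of them (Cxcr3, Cxcr4, Ccr2 and Ccr4) turned negative, and the median was 0.0036, where that of all genes was -0.56.

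Among 14 other chemokine receptor genes, 12 could be tested and the gates differed in the same direction as Ccr4 for 4 of them in each tumour type. Of all genes, 5.83% fell between the gates in Flt3L Panc02 tumours and 0.843% in Panc02 tumours. Ccr7 (lymph node homing), Ccr9 (gut homing, and a plasmacytoid dendritic cell marker), Ccr6 and Ccr10 (skin homing) fell in asGM1-positive cells. In Flt3L Panc02 tumours Ccr7 averaged 209 ± 64.2 CPM in asGM1-positive cells and 517 ± 34 CPM in asGM1-negative cells (log2 fold change -1.30, adjusted p = 0.00327). In Panc02 tumours it averaged 83.8 ± 16.1 and 302 ± 29.7 CPM (-1.85, adjusted p = 0.00137). Ccr9 averaged 1.12 and 117 CPM in Flt3L Panc02 tumours (adjusted p = 0.000394) and 0.710 and 24.1 CPM in Panc02 tumours (adjusted p = 0.00396). Ccr6 averaged 2.34 and 30.3 CPM (adjusted p = 0.000706), and 2.08 and 15.3 CPM (adjusted p = 0.00708). Ccr10 was under the floor of 3 fragments in asGM1-positive cells of Flt3L Panc02 tumours on average, at 0.0632 CPM against 3.11 CPM in asGM1-negative cells, and stood at 0.205 against 1.81 CPM in Panc02 tumours. Between tumour types, the scavenging receptor Ackr3 fell in both gates, Ccr1 fell in asGM1-positive cells, and Ccr7 rose there (1.32, adjusted p = 0.00752). Of all genes, 2.05% rose and 4.2% fell in asGM1-positive cells, and 1.86% rose and 1.84% fell in asGM1-negative cells. Ackr3 averaged 1.44 CPM in Flt3L Panc02 against 11.4 CPM in Panc02 asGM1-positive cells, and 1.20 against 6.75 CPM in asGM1-negative cells (adjusted p = 0.0206, and 0.0627 with T cell scaling). In each gate 1 of 4 fibroblast markers fell between tumour types, and 2 of 4 tumour epithelial markers fell while 1 rose. Their part in the Ackr3 difference was not tested.

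**Figure D4:**
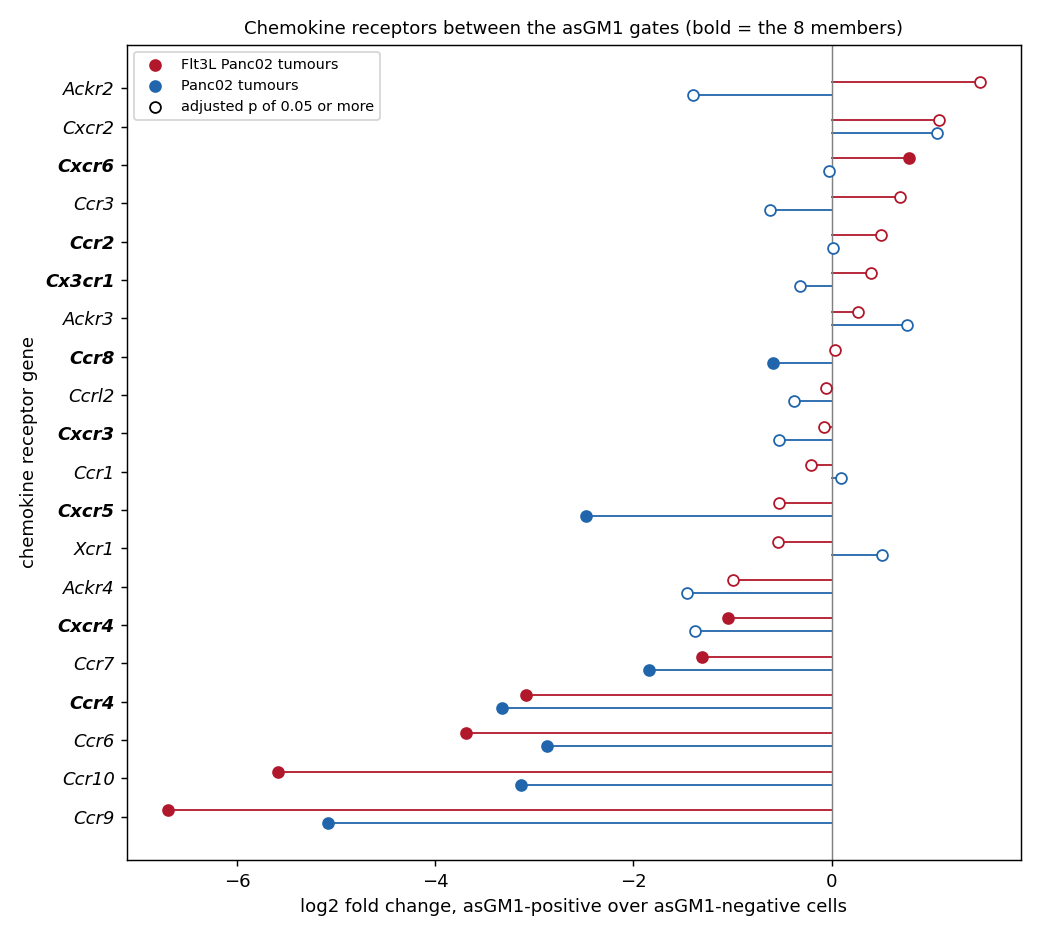
Log2 fold change of asGM1-positive over asGM1-negative cells (horizontal axis) for 20 chemokine receptor genes tested, in Flt3L Panc02 (red) and Panc02 tumours (blue); filled points passed an adjusted p under 0.05 and bold names are the 8 receptors described. Ccr4 lies among Ccr6, Ccr7, Ccr9 and Ccr10 on the lower side in both tumour types, and Cxcr6 is a filled point on the higher side. The Ccr10 point for Flt3L Panc02 rests on asGM1-positive levels under the floor of 3 fragments and is no measure of size.

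Of 13 ligand genes for the 8 receptors, 12 could be tested and 0 passed between the gates in edgeR. In Panc02 tumours 7 were higher at an unadjusted p under 0.05 and DESeq2 called 2 higher, and in Flt3L Panc02 tumours 2 were higher and 1 lower, with 1 DESeq2 call each way. Of all 20411 genes, 2040 had such an unadjusted p in Panc02 tumours and 5178 in Flt3L Panc02 tumours, in either direction. Between tumour types 4 ligands fell in asGM1-positive cells, namely Cxcl16, Ccl2, Ccl7 and Ccl17, and 2 fell in asGM1-negative cells, Ccl2 and Ccl7, where 4.2% and 1.84% of all genes fell. DESeq2 called 9 lower and 0 higher in asGM1-positive cells, and 6 lower and 1 higher in asGM1-negative cells. Its numbers over all genes are given in the closing section. With T cell scaling both asGM1-negative edgeR calls were lost (adjusted p = 0.0933 for Ccl2 and 0.0814 for Ccl7). Cxcl16, the CXCR6 ligand, averaged 23.9 ± 0.703 CPM in Flt3L Panc02 against 57.1 ± 24.9 CPM in Panc02 asGM1-positive cells (log2 fold change -1.25, adjusted p = 0.0284). Ccl2 averaged 3.06 against 13.9 CPM in asGM1-positive cells (adjusted p = 0.00801) and 2.30 against 6.65 CPM in asGM1-negative cells (adjusted p = 0.0369). These are also macrophage genes, and 4 of the 11 macrophage and monocyte markers fell in the asGM1-positive comparison and 0 of 11 in the asGM1-negative one. Without Ly6c2, that list summed to 603 to 819 CPM in Flt3L Panc02 and 799 to 3131 CPM in Panc02 asGM1-positive cells (means 702 and 1845 CPM), and its part in the ligand values was not tested. Ccl1, the CCR8 ligand that T cells make, averaged 131 ± 64.7 CPM in Flt3L Panc02 against 293 ± 33.9 CPM in Panc02 asGM1-positive cells, and 137 ± 91.9 against 438 ± 50.4 CPM in asGM1-negative cells. It did not pass the edgeR test in either gate (adjusted p = 0.116 and 0.0524). In asGM1-positive cells the adjusted p was 0.0985 in DESeq2 and 0.0207 with T cell scaling. In asGM1-negative cells these were 0.0108 and 0.103.

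The receptors signal through shared G protein components, of which 22 genes were followed. In Flt3L Panc02 tumours 3 rose in asGM1-positive cells, the G protein subunits Gnai2 and Gnb1 and the signalling brake Rgs16, and 2 fell, Rgs18 and the receptor kinase gene Grk3, where 2.77% of all genes rose and 5.83% fell. Gnai2 averaged 1995 against 1441 CPM (log2 fold change 0.47, adjusted p = 0.0126) and Rgs16 averaged 750.5 against 340 CPM (1.14, adjusted p = 0.0434). Scaled to summed T cell and CD8 genes, the Gnai2 difference was 0.05, that of Gnb1 0.07 and that of Rgs16 0.73, and all 3 lost their calls (adjusted p = 0.715, 0.695 and 0.125). In Panc02 tumours 0 of the 22 passed in edgeR (DESeq2: 0; unadjusted p under 0.05: 0 higher and 1 lower). Between tumour types Rgs3, Rgs10 and Rgs14 rose and Rgs18 fell in asGM1-positive cells, where 2.05% of all genes rose and 4.2% fell. In asGM1-negative cells Rgs10 and Rgs18 rose, where 1.86% of all genes rose. The 3 that rose in asGM1-positive cells lost their calls with T cell scaling, at 0.32 for Rgs3 (adjusted p = 0.281), 0.23 for Rgs10 (0.303) and 0.02 for Rgs14 (0.934). Rgs18 was the only gene of these lists with a called interaction (-3.30, adjusted p = 0.0206), at 0.303 and 3.68 CPM in asGM1-positive cells and asGM1-negative cells of Flt3L Panc02 tumours, and 0.944 and 1.16 CPM in Panc02 tumours.

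The genes most like each receptor were ranked by the Pearson r of log2 CPM over the 12 libraries, among 9358 genes averaging 5 CPM or more. Nearest to Cxcr6 were Smu1, Klrc1 (the NKG2A receptor chain) and Cdc42, with r of 0.967, 0.956 and 0.954. Cxcr3 was nearest to Mxd4, Hdhd5 and Gtf2i (0.978 to 0.976), and Cxcr4 to C2cd4b, Letmd1 and Cd7 (0.98 to 0.97). Ccr4 was nearest to Zdhhc13, the receptor gene Ccr9 and Slco3a1 (0.957, 0.942 and 0.935), and Ccr8 to Slamf1, Ptger2 and Adgre5 (0.919, 0.917 and 0.901). Cxcr5 was nearest to Adgre5, Rhoh and Acp5 (0.912 to 0.892), Cx3cr1 to Xpnpep1, Itfg1 and Ipo11 (0.914 to 0.867), and Ccr2 to Klc3, Def6 and Ocel1 (0.932 to 0.916). With the group means removed, r stayed between 0.871 and 0.876 for the 3 neighbours of Cxcr6, and fell to 0.445, 0.188 and 0.059 for those of Cxcr5. The libraries share groups and depth, so these values describe the tables only. Among the 8 receptors the lowest r was -0.601, between Cxcr6 and Ccr4, and it was -0.217 with the group means removed. For Cxcr4 and Cxcr6 the values were -0.535 and -0.797.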

How the data were processed

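The 12 libraries were grouped from their titles, and RNA-seq values were analysed per gene. The labels' protocols name TRIzol and a TruSeq mRNA kit under extraction, and a SMARTer ultra low input kit for the libraries; whether strand was kept is not given, so reads of overlapping or antisense genes may be mixed. HISAT2, StringTie and mm39 appear in the submitters' processing notes, without versions, order or annotation. The values that the authors deposited are estimated counts (expected counts), already whole, so that rounding changed nothing. Small values came in steps of about 2.68 counts, taken as 1 fragment.

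edgeR 4.0.16 (R 4.3.3, limma 3.58.1) was run with TMM factors, filterByExpr and a quasi-likelihood fit with a mean for each of the 4 groups over all 12 libraries; a gene was called where its p, adjusted by Benjamini-Hochberg over 20411 genes, was under 0.05. CPM use TMM-scaled libraries. Log2 fold changes include edgeR's prior count; standard errors and intervals do not. Lengths came from GENCODE M21 exons on GRCm38, another build than mm39. Motifs were matched in RefSeq windows of 250 bases.

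The members and lists were chosen with earlier results of these data known. Named were all 8 members, per comparison up to 4 called other receptors, 3 called ligands and 3 called G protein genes by smallest p, and the 3 genes most like each member; Ccl1, the other genes behind a count of 5 or fewer and Lyz2 were added after their values were seen. 1 other receptor gene and 1 marker gene are not reported here. Alternatives were DESeq2 1.42.0 (test and size factors), no filter, a stricter filter (5 CPM in 3 libraries), only the compared libraries, replicate blocks, counts divided by the fragment worth, no Panc02 libraries numbered 1, and each library left out. Scaling to summed T cell and CD8 genes was chosen after seeing the data. Same-numbered Panc02 libraries of the 2 gates deviated together (r of 0.477, 0.316 and 0.4), so their numbers were taken as pairs in the replicate blocks. The main fit had no such block. The edgeR fit was tested on simulated counts.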

Additional observations from a re-analysis of the deposited data

Results flagged for a closer look

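In 3 receptor genes the libraries of 2 contrasts moved in opposite directions without overlap. Only the 8 receptor genes were searched for this, so the share of all genes that would meet it is not known. For Cxcr6 and Ccr8 these were the tumour effects in the 2 gates: both were higher in Flt3L Panc02 than in Panc02 libraries among asGM1-positive cells and lower among asGM1-negative cells. The difference between the 2 effects was 0.81 on the log2 scale for Cxcr6 and 0.62 for Ccr8. For Cx3cr1 it was the gate effects: asGM1-positive libraries were above asGM1-negative ones in Flt3L Panc02 tumours and below them in Panc02 tumours, with a difference of 0.72. With libraries scaled to summed T cell and CD8 genes the tumour effect in asGM1-positive cells was -0.24 for Cxcr6 and -0.09 for Ccr8, below 0 as in asGM1-negative cells, the gate effect of Cx3cr1 in Flt3L Panc02 tumours was 0.0017, and the 3 differences were 0.27, 0.10 and 0.20. The edgeR interaction test did not pass for any of the 3 (adjusted p = 0.0819 for Cxcr6, 0.131 for Ccr8 and 0.136 for Cx3cr1), while the DESeq2 test passed for all 3. The genes were picked for opposite effects in the same libraries, so neither test is independent of that choice.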

How the results depend on the processing

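No called change of a receptor gene turned its direction under any alternative run, but 11 of the 40 receptor effects, all uncalled, did so with T cell scaling. With DESeq2's test the genes called numbered 3215 for the Flt3L Panc02 gates, 589 for the Panc02 gates, 2984 and 2216 for the tumour types in asGM1-positive and asGM1-negative cells, and 864 for the interaction, where edgeR called 1754, 182, 1276, 756 and 75. With it 3 receptors rose in the Flt3L Panc02 gates, 5 between tumour types in asGM1-positive cells and 4 in the interaction. DESeq2 size factors, no filter, the stricter filter and the compared libraries alone each left 1 receptor lower in the Flt3L Panc02 gates (the stricter filter drops Ccr4). No filter left 691 and 390 genes for the tumour types in asGM1-positive and asGM1-negative cells and 40 for the interaction, with 1 receptor higher and 1 lower in asGM1-negative cells; the stricter filter gave 137 for the interaction. The compared libraries alone gave 1094, 118 and 1 genes for the Flt3L Panc02 gates, the Panc02 gates and the tumour types in asGM1-positive cells, with 1 receptor lower in the Panc02 gates, 0 higher in asGM1-positive cells and 1 lower in asGM1-negative cells.

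Without both Panc02 libraries numbered 1, 107 genes were called for the Panc02 gates, 402 and 481 for the tumour types in asGM1-positive and asGM1-negative cells and 27 for the interaction, with 0 receptors lower in the Panc02 gates, and 1 higher and 1 lower in asGM1-negative cells. Scaling to summed T cell and CD8 genes moved the median log2 fold change of all genes to -0.42, 0.15, -0.53, 0.04 and -0.56 in the order above. It called 78 genes higher and 3106 lower for the Flt3L Panc02 gates (3184 in all; 565 and 1189 with TMM), 127 and 6103 for the tumour types in asGM1-positive cells (6230; 418 and 858 with TMM), 112 and 85 in asGM1-negative cells (197), 10 and 94 for the Panc02 gates (104) and 6 and 409 for the interaction (415), with 1 receptor lower in asGM1-negative cells. The causes of these shifts were not tested.

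Leaving out each library in turn gave 768 to 1942 genes for the Flt3L Panc02 gates, 94 to 226 for the Panc02 gates, 215 to 1737 and 94 to 959 for the tumour types in asGM1-positive and asGM1-negative cells, and 1 to 257 for the interaction. Receptors called lower numbered 1 to 2 in the Flt3L Panc02 gates, 1 to 3 in the Panc02 gates and 0 to 2 between tumour types in asGM1-negative cells. Receptors called higher numbered 1 to 2 in the Flt3L Panc02 gates, 0 to 2 between tumour types in asGM1-negative cells and 0 to 2 in the interaction. The replicate block over all 12 libraries called 2 receptors higher and 1 lower in the Flt3L Panc02 gates, 5 higher between tumour types in asGM1-positive cells, and 135 genes in the interaction. The replicate block within tumour type called 2 higher in the Flt3L Panc02 gates and 204 genes in the interaction. Same-numbered libraries correlated at 0.113, 0.368 and 0.009 between the Flt3L Panc02 gates, and differently numbered ones at -0.34 to 0.177. Whether the Flt3L Panc02 numbers mark pairs is therefore not settled. Between tumour types same-numbered libraries correlated at -0.311 to 0.085, so those were taken to share only a number. Apart from Cxcr4 and Cxcr5, the block within tumour type changed no receptor call in the Panc02 gates. Genes under about 0.1 CPM cannot be resolved at this depth.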
